A study of Mus musculus with 12 samples.

Results

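The genes described here encode the tubulins, the cofactors that fold tubulin into dimers, and the kinesin motors that walk on the resulting microtubules, measured in mouse aorta after CM-695 and after vehicle. Members were all genes whose platform symbol begins Tuba, Tubb, Tubg, Tubd or Tube with a number, or Kif with a number, or is Tbca to Tbce, on a probe set that names a single gene. The probe set with the highest mean over the 12 arrays stood for a gene that had several. This gave 59 of 22180 genes: 16 tubulins, 4 folding cofactors, 37 kinesins and 2 pseudogene entries. Tuba3a, Tuba3b, Tuba4a and Tbce were named only together with another gene and have no value of their own here. On such shared probe sets, CM-695 minus vehicle was -0.42 log2 (SE 0.20) for Tuba4a and -0.05 (SE 0.11) for Tbce. Those naming both Tuba3a and Tuba3b gave 0.49 (SE 0.23) and 0.19 (SE 0.15). The pseudogene entries Tubb2a-ps2 and Kif4-ps differed by -0.13 (SE 0.11) and -0.16 (SE 0.16) on the log2 scale and are left out of the counts below, which cover 57 genes.

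All mice were female CD-1 mice, an outbred stock, and no age or genetic modification is given in the labels. A group of 6 mice received CM-695, a compound that inhibits both HDAC6 and phosphodiesterase 9, by intraperitoneal injection of 80 mg/kg 2 h and again 1 h before sacrifice. The other 6 received saline, recorded in the series design as a single injection, so the number of injections cannot be told apart from the compound. Each aorta was taken after perfusion with buffered saline and hybridised to its own array. The values are RMA log2 values without detection calls, and with 12 arrays the number of mice limits the precision. Array medians lay between 4.69 and 4.74.

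Alpha- and beta-tubulin form the dimers from which microtubules are built, while gamma-tubulin starts new microtubules at the centrosome. Folding needs the cytosolic chaperonin and then the tubulin cofactors, and cells lower their tubulin messages when free dimers accumulate. HDAC6 removes the acetyl group that marks stable microtubules from alpha-tubulin, a change to the protein that transcript values do not measure. Most kinesins carry cargo towards the plus end of the microtubule. Others slide, shorten or anchor microtubules in the mitotic spindle.

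The labelled tissue was checked against its markers. All 10 smooth muscle markers and all 9 endothelial markers lay above the median of all probe sets. So did 11 of 11 heart muscle markers, whose mean per mouse ran from 7.53 to 9.61 after vehicle and from 6.02 to 8.71 after CM-695. All 11 fibroblast and all 8 measured adipocyte markers did too. The adipocyte markers had a vehicle mean of 9.91, beside 9.77 for smooth muscle. Of all 22180 genes, 12978 lay above that median. In whole tissue, fewer cells of a type and less RNA per cell cannot be told apart.

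The promoters of the tubulins that came closest to the threshold are shown first, as the reference sequence just upstream of the genes that the values below turn on. RefSeq (GRCm38.p6) promoter entries matched 48 of the 57 genes; Tubg1, Tubb2b and Tubb6 are among those without one. Each line gives the 250 bases before the start site, 5′ to 3′ on the strand of the gene, with motif matches in capitals. Tubb2a lies at chr13:34078009-34078258 on the minus strand, Tuba1b at chr15:98934391-98934640 on the minus strand and Tubb1 at chr2:174450345-174450594 on the plus strand.
Tubb2a: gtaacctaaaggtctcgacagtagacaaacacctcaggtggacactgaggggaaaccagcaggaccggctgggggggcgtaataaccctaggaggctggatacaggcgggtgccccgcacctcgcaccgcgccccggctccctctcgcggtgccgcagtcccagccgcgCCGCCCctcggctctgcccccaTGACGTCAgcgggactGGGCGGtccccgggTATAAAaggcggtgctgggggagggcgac
Tuba1b: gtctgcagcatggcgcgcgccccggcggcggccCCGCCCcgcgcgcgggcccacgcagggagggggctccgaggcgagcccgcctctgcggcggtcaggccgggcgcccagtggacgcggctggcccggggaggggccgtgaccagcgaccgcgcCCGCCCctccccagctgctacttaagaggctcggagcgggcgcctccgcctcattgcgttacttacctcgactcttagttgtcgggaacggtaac
Tubb1: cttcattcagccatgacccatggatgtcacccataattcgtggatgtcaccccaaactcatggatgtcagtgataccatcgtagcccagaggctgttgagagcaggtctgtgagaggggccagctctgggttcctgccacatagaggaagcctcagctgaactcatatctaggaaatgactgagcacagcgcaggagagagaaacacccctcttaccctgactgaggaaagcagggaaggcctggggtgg
The motifs searched on both strands were the TATA box TATAAA, the CCAAT box CCAAT, the GC box GGGCGG, the E-box CACGTG bound by clock activators, the cAMP response element TGACGTCA, and a short heat shock element, GAANNTTC; the cAMP response element was added after the letters had been seen. None of these motifs overlaps another in the windows shown. The Tubb2a window held TATAAA from base -29, GGGCGG from -43 and on the opposite strand from -81, and TGACGTCA from -59. The Tuba1b window held the GC box on the opposite strand from -217 and from -95. The Tubb1 window held none of these letters, and at 54.0% its share of G and C bases was below the 68.4% of Tubb2a and the 75.6% of Tuba1b.

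The clock and heat shock letters were counted in all windows. CACGTG stood in 2 of 13 tubulin windows (15.4%), those of Tuba8 and Tubb5, in 0 of 4 cofactor windows and in 1 of 35 kinesin windows (2.86%). Of all 32851 windows of this length, 6.02% held it. GAANNTTC stood in 0 of 13 tubulin windows, in 0 of 4 cofactor windows and in 1 of 35 kinesin windows, that of Kif22, against 6.69% of all windows. TATAAA stood in 12.4%, CCAAT in 33.8%, GGGCGG in 32.7% and TGACGTCA in 1.55% of all windows. These matches describe letters only.

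None of the 57 genes passed the threshold in the comparison of CM-695 with vehicle (limma, Benjamini-Hochberg adjusted p under 0.05 over all 41345 probe sets). Over all genes, 0.167% passed. The lowest adjusted p among the 57 was 0.333, for Tubb2a, and the count was 0 in each of 24 alternative analyses. At an unadjusted limma p under 0.05, 4 of the 57 were higher and 0 lower, against 4.96% and 4.14% of all genes (9.1% in either direction). All 4 were tubulins: Tubb2a, Tubg1, Tuba1b and Tubb1. On the probe sets that stood for them, kinesins and cofactors gave 0 in either direction.

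The tubulins as a group had a median difference of 0.17 log2, beside 0.02 over all genes. Of the 16, 12 lay above 0 and 4 below, or 75% above, beside 55.3% of all genes. Of the kinesins, 20 lay above 0 and 17 below, with a median of 0.0017 that was below 0 in 5 of 24 alternatives, at the lowest -0.0073 when arrays were centred on their medians. The tubulin median stayed above 0 in each of the 24 alternatives, between 0.11 and 0.24. The mean of the 16 tubulins per mouse ran from 5.64 to 5.85 after vehicle and from 5.78 to 6.10 after CM-695. Of these treated means, 4 of 6 exceeded every vehicle mean. The mean of all genes ran from 5.23 to 5.25 and from 5.24 to 5.26, and there too 4 treated means exceeded every vehicle mean. CM-695 mice 2, 3 and 4 were each highest among treated mice for 5 of the 16 genes, and mice 5 and 6 for none.

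**Figure D1:**
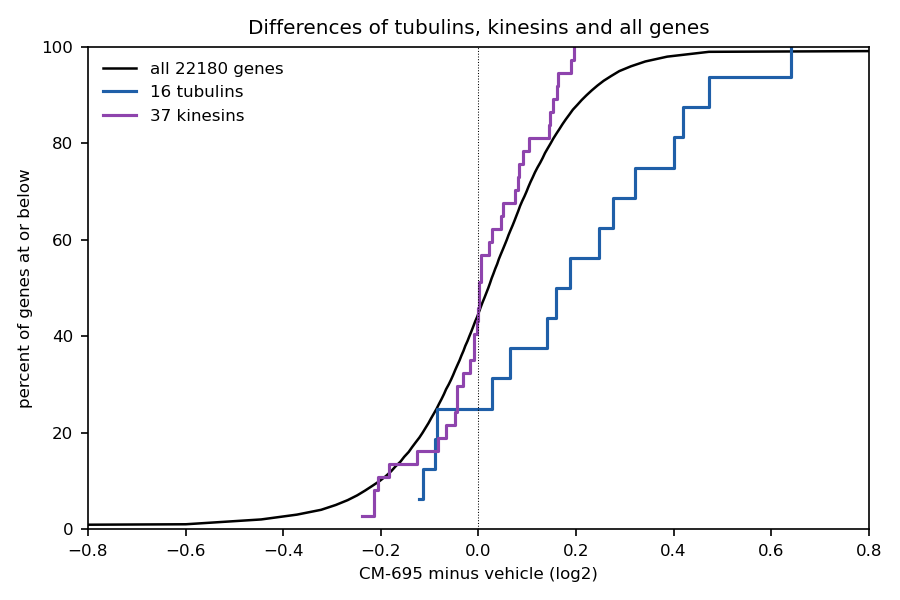
Cumulative percent of genes (y axis) at or below each difference between CM-695 and vehicle (x axis, log2) for the 16 tubulins, the 37 kinesins and all 22180 genes; the axis ends at 0.8 log2 on either side. The tubulin curve lies to the right of the curve for all genes over most of its length (median 0.17 against 0.02), and the kinesin curve lies near it and is narrower.

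Among beta-tubulins, 7 of 8 had a difference above 0, with a median of 0.26 log2. Tubb2a, an isotype found in many tissues and abundant in nerve, measured 5.77, 6.28 and 6.42 after vehicle (lowest, median and highest of 6 mice) and 6.33, 6.68 and 7.06 after CM-695. Treated mice 5 and 1 lay within the vehicle range and the other 4 above it. The difference was 0.47 (SE 0.15, 95% confidence interval 0.15 to 0.79, limma adjusted p = 0.333), or 1.39-fold.

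Tubb1, the beta-tubulin of megakaryocytes and of the marginal band of platelets, was the only member whose groups did not overlap. It measured 4.52, 4.72 and 4.77 after vehicle and 4.77, 4.91 and 5.11 after CM-695 (lowest, median, highest). The lowest treated mouse exceeded the highest vehicle mouse by only 0.00313 log2, and such separation upward was seen in 0.442% of all genes. The difference was 0.25 (SE 0.091, limma adjusted p = 0.424), or 1.19-fold.

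Platelet markers varied alongside Tubb1. The mean of the 8 measured markers ran from 4.72 to 5.11 after vehicle and from 4.88 to 5.25 after CM-695, 6 of 8 differed by more than 0, and 5 of 8 exceeded the array median. Their differences ran from -0.04 to 0.76 log2, with a median of 0.14, and only 3 had an unadjusted limma p under 0.05. Of these, Gp6, the platelet collagen receptor, differed by 0.41 (SE 0.14). The chemokine gene Ppbp differed by 0.76 (SE 0.29) and the von Willebrand receptor subunit gene Gp9 by 0.32 (SE 0.14). With the platelet marker mean as a covariate, a fit chosen after the data had been seen, the Tubb1 difference was 0.14 (SE 0.11, limma adjusted p = 0.831; over all alternatives 0.268 to 0.879). With the heart muscle mean as a covariate it was 0.12 (SE 0.12). The part of platelets in the Tubb1 difference was not tested beyond the first of these fits.

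Tubb3, the beta-tubulin of neurons, measured 4.25, 4.87 and 5.10 after vehicle and 4.47, 5.08 and 6.16 after CM-695. The treated values were widely spread, with mouse 4 highest at 6.16, mouse 6 at 5.59 and mouse 1 below most vehicle mice. The difference was 0.40 (SE 0.25, limma adjusted p = 0.663), or 1.32-fold, and 0.21 without mouse 4.

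The same mice were high for markers of neurons. The mean of 13 neuron markers was 5.53 in CM-695 mouse 4 and 4.92 in mouse 6, while the other treated mice lay between 4.22 and 4.40 and the vehicle mice between 4.12 and 4.78. All 13 differed by more than 0, with a median of 0.30 log2, and 7 of 13 exceeded the array median. The neurofilament genes Nefh and Nefl differed by 0.30 (SE 0.10) and 0.64 (SE 0.30), and the synaptic vesicle gene Syt1 by 0.50 (SE 0.28). Dbh, which makes noradrenaline, differed by 0.77 (SE 0.48) and was named after its values were seen. Schwann cell markers ran from 4.91 to 5.32 after vehicle and from 4.81 to 5.21 after CM-695 (7 measured, 5 above the array median, median difference -0.01).

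Without CM-695 mice 4 and 6, a choice made with their values known, the Tubb3 difference was 0.064 (SE 0.19), and with the neuron marker mean as a covariate it was 0.071 (SE 0.16). The limma adjusted p was 0.949 and 0.940 in these fits and 0.552 to 0.949 over all alternatives. For Tubb2a the same fits gave 0.34 (SE 0.15) and 0.42 (SE 0.16), for Tuba1b 0.40 (SE 0.21) and 0.47 (SE 0.21), for Tubg1 0.41 (SE 0.15) and 0.35 (SE 0.15), and for Tubb1 0.23 (SE 0.10) and 0.21 (SE 0.10). The tubulin median was 0.17 in both.

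**Figure D2:**
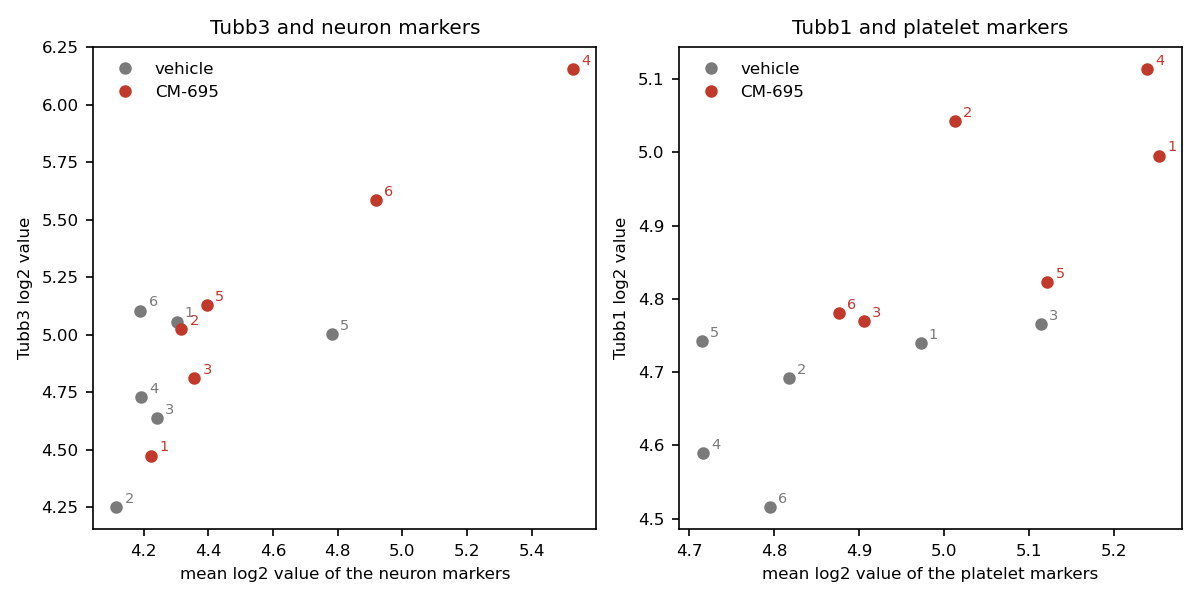
Left, the log2 value of Tubb3 (y axis) against the mean log2 value of the neuron markers (x axis); right, Tubb1 against the mean of the platelet markers; each point is a mouse, numbered within its group. CM-695 mice 4 and 6 stand at the upper right for Tubb3 (6.16 and 5.59), and all treated mice lie above the vehicle mice for Tubb1.

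The remaining beta-tubulins overlapped between groups. Tubb2b, the neural partner of Tubb2a, measured 4.36, 4.78 and 5.26 after vehicle and 4.66, 5.10 and 5.33 after CM-695, a difference of 0.28 (SE 0.17), which was 0.13 with the heart muscle mean and 0.086 with the platelet mean as a covariate. Tubb4a, known from myelinating cells and brain, measured 5.41, 5.95 and 6.13 against 5.62, 6.02 and 7.09, a difference of 0.32 (SE 0.23). Its highest value came from CM-695 mouse 2, without which the difference was 0.13. That mouse was also highest for the smooth muscle markers, at 10.8 against 8.79 to 9.85 in the other treated mice and 9.32 to 10.2 in vehicle mice; the part of this in the Tubb4a value was not tested beyond a fit with that mean as a covariate, which gave 0.49.

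Tubb5, the most widely used beta-tubulin of dividing and resting cells, measured 8.45, 8.94 and 9.24 after vehicle and 8.64, 9.04 and 9.47 after CM-695. Its difference was 0.14 (SE 0.16), and a further probe set gave 0.15 (SE 0.15). Without vehicle mouse 1 it was 0.052, without CM-695 mouse 2 0.054 and without CM-695 mouse 1 0.22. Tubb4b, a broadly used isotype also found in cilia, differed by 0.16 (SE 0.11), with 3 treated mice above the vehicle range; without CM-695 mouse 3 it was 0.088. Tubb6, an isotype found mainly outside the nervous system, differed by -0.09 (SE 0.15) and was the only beta-tubulin below 0; leaving out 1 mouse gave -0.16 to -0.014, nearest to 0 without vehicle mouse 2. Limma adjusted p for these 5 genes lay between 0.664 and 0.898.

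The 4 alpha-tubulins measured on their own differed in direction. Tuba1b, a ubiquitous isotype, measured 3.36, 3.60 and 4.45 after vehicle and 3.79, 4.30 and 4.86 after CM-695. Only treated mice 4 and 6 exceeded the highest vehicle mouse, which was mouse 6 and stood apart from the other 5, at most 3.84. The difference of 0.64 (SE 0.21, limma adjusted p = 0.364), or 1.56-fold, was the largest among the 57 genes. The probe set is dim, below the median of all probe sets, and a brighter one that also names the predicted gene Gm5620 gave 0.24 (SE 0.19).

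Tuba1a, the main alpha-tubulin of developing neurons, differed by 0.19 (SE 0.22), with vehicle mouse 1 lowest at 4.84 and the other 11 mice between 5.37 and 6.33. Without that mouse the difference was 0.016. Tuba1c differed by -0.12 (SE 0.14), and a dimmer probe set by -0.49 (SE 0.23); leaving out 1 mouse gave -0.20 (CM-695 mouse 2) to -0.052 (vehicle mouse 4). Tuba8, found in muscle and testis, measured 7.02, 7.50 and 8.28 after vehicle and 7.29, 7.51 and 8.26 after CM-695, a difference of 0.07 (SE 0.23) that was negative in 4 of 24 alternatives. With the heart muscle mean as a covariate it was 0.38 (SE 0.30), and skeletal muscle markers ran from 4.60 to 4.95 after vehicle and from 4.52 to 4.87 after CM-695 (4 of 9 above the array median). Tubulin isotypes have near-identical coding sequences, so their probe sets can share signal and the separate values are uncertain.

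**Figure D3:**
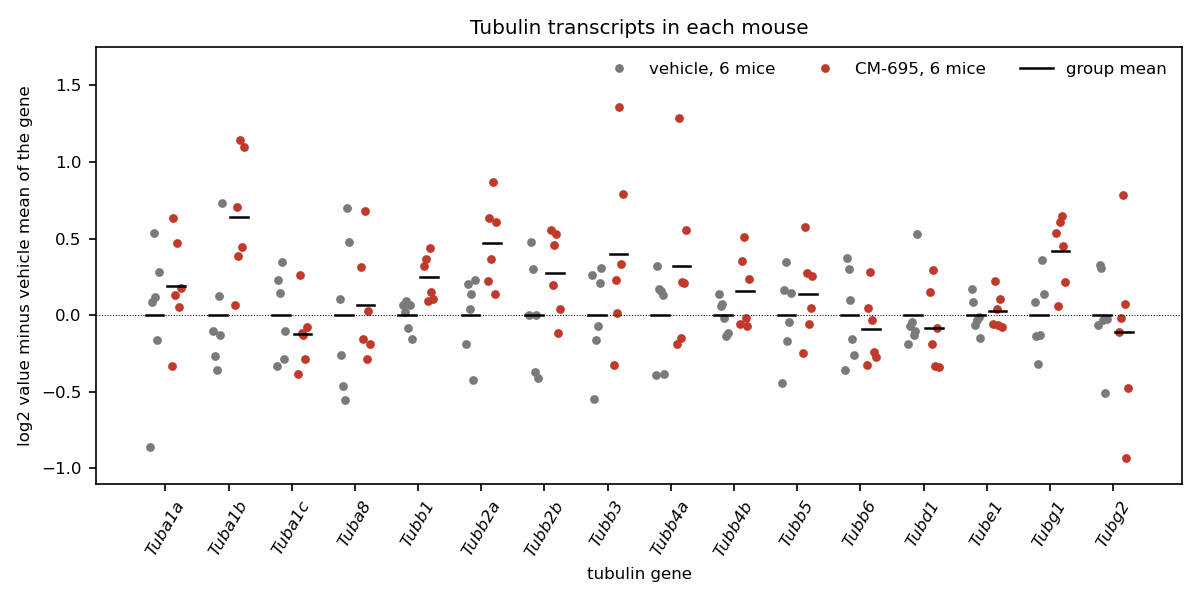
Log2 value of each tubulin (x axis) in each mouse, minus the vehicle mean of that gene (y axis), with grey points for 6 vehicle mice, red points for 6 CM-695 mice and bars for group means. The groups overlap for every gene except Tubb1; Tubb2a, Tubg1 and Tuba1b have group means 0.47, 0.42 and 0.64 apart.

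The gamma-tubulins had values of opposite sign. Tubg1, the ubiquitous gamma-tubulin of the centrosome, measured 6.80, 7.10 and 7.48 after vehicle and 7.18, 7.61 and 7.76 after CM-695, with treated mice 1, 3, 4 and 5 above the vehicle range. The difference was 0.42 (SE 0.14, 95% confidence interval 0.13 to 0.71, limma adjusted p = 0.345), or 1.34-fold. It had an unadjusted p under 0.05 in all 24 alternatives, with differences from 0.34 to 0.51.

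Tubg2, its close copy expressed mainly in brain, measured 3.77, 4.25 and 4.60 after vehicle and 3.35, 4.21 and 5.06 after CM-695, a difference of -0.11 (SE 0.24) with treated mice at both extremes. The difference between the gamma-tubulins was not tested. Tubd1 and Tube1, which encode the delta- and epsilon-tubulin of centrioles, differed by -0.08 (SE 0.15) and 0.03 (SE 0.087). For Tubd1, vehicle mouse 6 stood apart at 6.53, and without it the difference was 0.023.

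The folding cofactors were nearly level between groups. Tbca, which holds beta-tubulin, differed by 0.06 (SE 0.14), Tbcb, which holds alpha-tubulin, by 0.07 (SE 0.078), Tbcd, which assembles the dimer, by 0.08 (SE 0.11), and Tbcc, which releases it, by -0.08 (SE 0.14). Their 95% confidence intervals all lay between -0.39 and 0.37 log2, and the limma adjusted p between 0.827 and 0.930. Tbca measured 6.58 in CM-695 mouse 2 and at least 7.17 in the other treated mice, and without that mouse its difference was 0.18. Leaving out 1 mouse gave 0.034 to 0.095 for Tbcb (lowest without CM-695 mouse 4) and 0.025 to 0.13 for Tbcd (without CM-695 mouse 5 and mouse 1).

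The folding route and the wider family were measured through further lists. Of 16 measured subunits and partners of the chaperonin CCT and prefoldin, 14 lay above 0, with a median of 0.11 log2, and 0 passed the threshold or had an unadjusted p under 0.05. Cct8 differed by 0.20 (SE 0.092), Cct3 by 0.25 (SE 0.12) and Cct7 by 0.16 (SE 0.086), all subunits of the chaperonin ring. Among 17 relatives outside the naming rule, the median was 0.03, 13 lay above 0 and 4 below, 0 passed, and 2 were higher and 1 lower at an unadjusted p under 0.05. Arl2, a GTPase that works with TBCD, differed by 0.28 (SE 0.098), the minus-end mitotic kinesin gene Kifc1 by 0.41 (SE 0.18), and Tbcel, a relative of TBCE that destabilises tubulin, by -0.23 (SE 0.096).

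Enzymes that modify tubulin did not pass either. Ttl, which restores the terminal tyrosine of alpha-tubulin, measured 5.68, 5.82 and 6.19 after vehicle and 6.13, 6.35 and 6.57 after CM-695, a difference of 0.44 (SE 0.12, limma adjusted p = 0.217). Treated mice exceeded the vehicle range in 4 of 6 cases. Atat1, the acetyltransferase that opposes HDAC6 on alpha-tubulin, differed by 0.28 (SE 0.13, adjusted p = 0.523), and Ttll12, a relative of TTL, by 0.22 (SE 0.10). Hdac6 differed by 0.01 (SE 0.12), and Sirt2, another tubulin deacetylase, named after its values were seen, by 0.01 (SE 0.12). Over the 19 measured genes of this list the median was 0.02, with 2 higher and 0 lower at an unadjusted p under 0.05.

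Microtubule-binding proteins and dynein had medians near that of all genes. The 27 microtubule-associated and plus-end genes had a median of 0.00055. Of these, 0 passed the threshold, and 0 were higher and 1 lower at an unadjusted limma p under 0.05. Fign, a severing enzyme, differed by -0.31 (SE 0.12), the plus-end linker gene Clip1 by -0.29 (SE 0.14) and Map1s by 0.11 (SE 0.081). The 20 measured genes of dynein, the motor that runs opposite to most kinesins, and its activator dynactin had a median of 0.05. Here too 0 passed, and 1 was higher and 0 lower at an unadjusted limma p under 0.05. Dynlrb1, a dynein light chain, differed by 0.23 (SE 0.099), the intermediate chain gene Dync1i1 by 0.19 (SE 0.095) and the dynein regulator gene Nde1 by -0.14 (SE 0.099).

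Kinesins differed little between the groups. On the probe sets used, no kinesin difference in the reported fit was beyond 0.25 log2 in size, beside 6 of 16 tubulins and 14.4% of all genes. The standard errors of the kinesins lay between 0.081 and 0.15, and every 95% confidence interval on these probe sets lay between -0.55 and 0.47 log2 and included 0. Dimmer single-gene probe sets, not used in the counts, had intervals of -0.60 to -0.085 for Kif5b and 0.042 to 0.45 for Kif27, which exclude 0. That of Kif7 included it. The mean of all 37 per mouse ran from 5.10 to 5.18 after vehicle and from 5.12 to 5.19 after CM-695. In at least 1 alternative, 9 of the 15 kinesins with the smallest p did go beyond 0.25, and leaving out a single mouse moved 11 of the 15 by over 1.5 times. Kif5b was the only one of the 15 that no alternative moved so far.

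**Figure D4:**
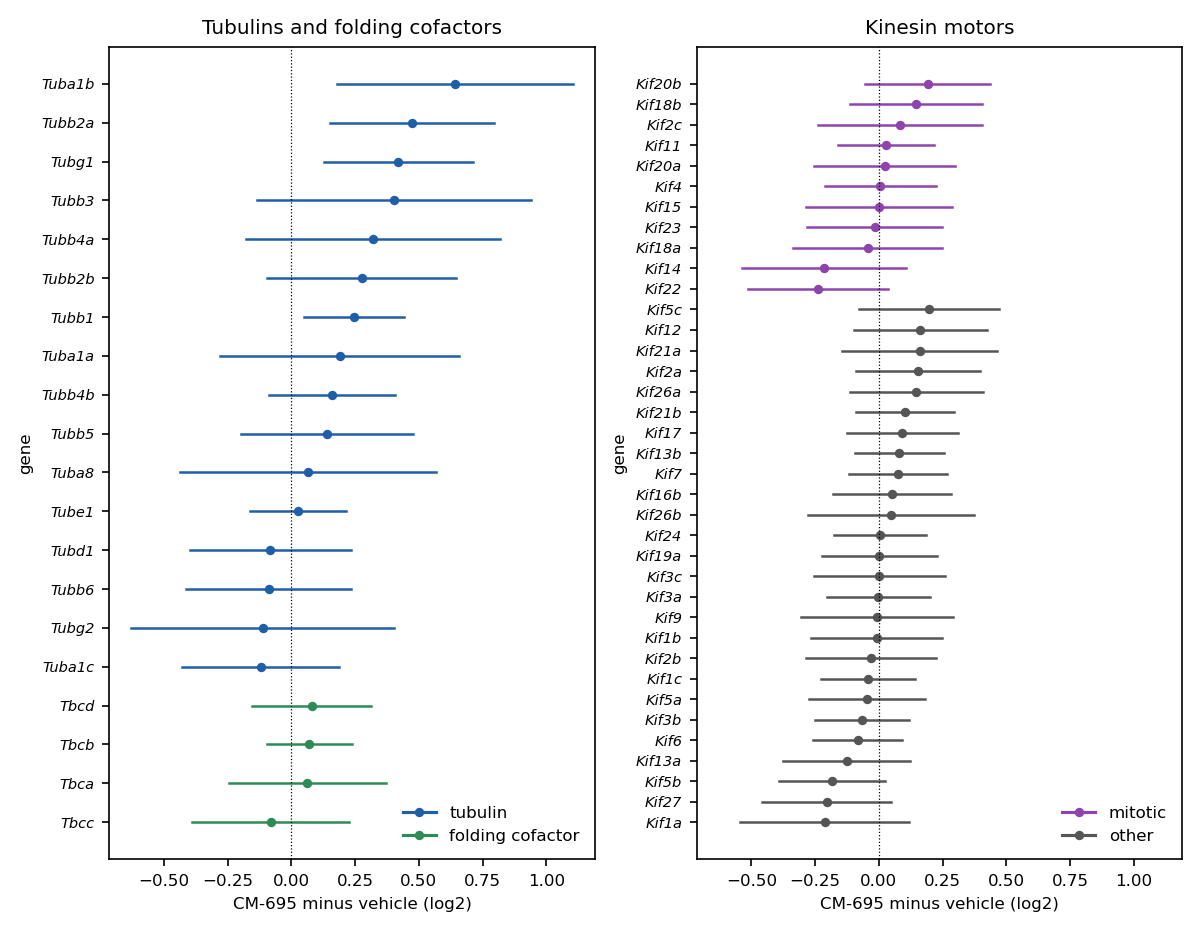
Difference between CM-695 and vehicle (x axis, log2) for each gene (y axis), with points for limma estimates and lines for 95% confidence intervals; tubulins and folding cofactors are on the left and kinesins on the right. On the probe sets used, the intervals of Tuba1b, Tubb2a, Tubg1 and Tubb1 exclude 0 before adjustment, and those of all 37 kinesins include it.

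Of the conventional kinesins, which carry vesicles and mitochondria, Kif5b, the ubiquitous heavy chain, had the smallest p among all kinesins. It measured 8.18, 8.40 and 8.54 after vehicle and 7.99, 8.27 and 8.37 after CM-695, a difference of -0.18 (SE 0.096, limma adjusted p = 0.594). All treated mice lay at or below 8.37, and 2 lay under the lowest vehicle mouse. A dimmer probe set of Kif5b gave -0.34 (SE 0.12, adjusted p = 0.386). The neuronal heavy chain genes Kif5c and Kif5a differed by 0.20 (SE 0.13) and -0.05 (SE 0.11). Without vehicle mouse 5 or 6 the Kif5c difference was 0.12 or 0.13.

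Kinesins of other families, set apart from those listed as mitotic below, showed both signs. Kif1a, the motor of synaptic vesicle precursors, measured 4.62, 4.71 and 5.31 after vehicle and 4.19, 4.62 and 5.07 after CM-695, a difference of -0.21 (SE 0.15), opposite in sign to Tubb3 and the neuron markers. It was -0.12 without vehicle mouse 4, -0.13 without CM-695 mouse 1 and -0.37 without CM-695 mice 4 and 6. Kif13a, an endosomal motor, differed by -0.13 (SE 0.12), Kif21a and Kif21b, which slow microtubule growth, by 0.16 (SE 0.14) and 0.10 (SE 0.089), and Kif26a, a non-motile relative, by 0.15 (SE 0.12). Kif21a was 0.070 without vehicle mouse 4 and 0.36 with the heart muscle mean as a covariate. Leaving out CM-695 mouse 3 gave -0.077 for Kif13a and 0.087 for Kif26a, and leaving out CM-695 mouse 6 gave 0.057 for Kif21b. Kif2a, which shortens microtubules, differed by 0.15 (SE 0.11), Kif12 by 0.16 (SE 0.12) and Kif6 by -0.08 (SE 0.081). Without CM-695 mouse 2, Kif12 was 0.096 and Kif6 -0.052, and without CM-695 mice 4 and 6 Kif2a was 0.26. Kif27, a relative of the ciliary regulator Kif7, differed by -0.21 (SE 0.12), but its other probe set, of similar brightness, gave 0.24 (SE 0.094), so its direction is not settled.

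The ciliary kinesin genes given here, named after their values were seen, were close to level on the probe sets that stood for them. Kif3a and Kif3b, the motor pair that builds cilia, differed by -0.0020 (SE 0.093) and -0.07 (SE 0.086), Kif17 by 0.09 (SE 0.10) and Kif7 by 0.07 (SE 0.089). A dimmer probe set of Kif7 gave 0.22 (SE 0.14). In all, the 22 kinesins outside the 15 with the smallest p differed by -0.07 to 0.09 on the probe sets used, with limma adjusted p between 0.804 and 0.999. These 22 were set apart by their larger p, so small differences among them follow in part from that choice.

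The kinesins listed here as mitotic were mostly dim. Of 11, 1 exceeded the median of all probe sets, Kif18b, beside 19 of the 26 other kinesins. Kif2a, which shortens microtubules, was counted among the 26. Kif22, a motor that binds chromosome arms, measured 3.97, 4.23 and 4.51 after vehicle and 3.83, 3.95 and 4.29 after CM-695, a difference of -0.24 (SE 0.13, limma adjusted p = 0.607), with 3 treated mice below the vehicle range. It was -0.54 with the heart muscle mean as a covariate (adjusted p = 0.308 in limma; over all alternatives 0.308 to 0.788) and -0.41 with the platelet mean. Kif20b, which acts in cytokinesis, differed by 0.19 (SE 0.11), Kif14, also of cytokinesis, by -0.21 (SE 0.15) and Kif18b by 0.14 (SE 0.12). Leaving out 1 mouse gave -0.10 for Kif14 (CM-695 mouse 4), 0.22 for Kif18b (CM-695 mouse 2) and 0.13 for Kif20b (vehicle mouse 5). Kif11, the motor that separates spindle poles, differed by 0.03 (SE 0.088).

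Markers of dividing cells were low in the same arrays. Of 17 measured, 4 exceeded the array median, the median difference was -0.09 log2, and 13 lay below 0; the mean per mouse ran from 4.25 to 4.60 after vehicle and from 4.19 to 4.40 after CM-695. Ccnb2, a mitotic cyclin gene, differed by -0.42 (SE 0.14), Ccna2, a cyclin gene of DNA synthesis and mitosis, by -0.37 (SE 0.21), and Nusap1, a spindle protein gene, by -0.23 (SE 0.13), none past the threshold.

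Among the other cell types listed, heart muscle markers had the largest shift, with 11 of 11 below 0 and a median of -1.68 log2, and 11 of 11 fibroblast markers lay below 0 (median -0.39; mean per mouse 8.90 to 9.70 after vehicle and 8.67 to 9.26 after CM-695). Smooth muscle markers lay below 0 in 9 of 10 cases (median -0.27). Other lists lay mostly above 0. Leukocyte markers did so in 7 of 8 cases (median 0.28; mean per mouse 5.75 to 6.41 after vehicle and 5.81 to 6.55 after CM-695, 3 treated means above all vehicle means). Adipocyte markers did so in 6 of 8 (median 0.15; 9.67 to 10.1 and 9.40 to 10.3, with 4 treated means above). Ciliated cell markers did so in 6 of 7 (median 0.06; 4.79 to 4.90 and 4.79 to 5.02, with 4 treated means above, and 2 of 7 markers above the array median). For the mean of all genes, 4 treated means lay above all vehicle means as well. With the heart muscle mean as a covariate the tubulin median was 0.18, and with the smooth muscle mean 0.24. The part of these shifts in the tubulin values was not tested beyond these fits.

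**Figure D5:**
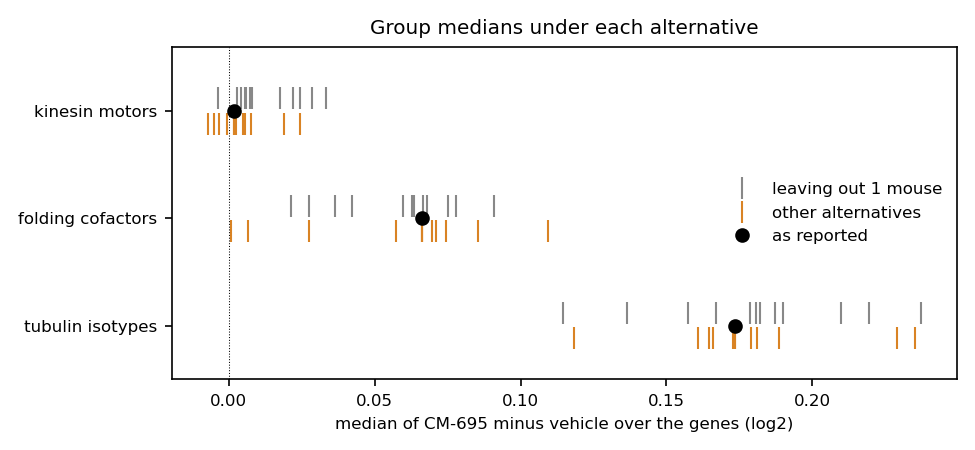
Median difference between CM-695 and vehicle (x axis, log2) of tubulins, folding cofactors and kinesins (y axis) as reported (black), with 1 mouse left out (grey) and under the other alternatives (orange). The tubulin medians lie between 0.11 and 0.24, the cofactor medians between 0.00074 and 0.11, and the kinesin medians between -0.0073 and 0.033.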

How the data were processed

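The deposited table held log2 expression values for 41345 probe sets on 12 arrays, 1 per mouse. The authors' method was RMA, as the submitters' processing notes record it, which corrects background, normalizes between arrays and summarizes probes; for its software, version and genome build, nothing is given in the sources read. Genes were named from the platform annotation: 23521 probe sets named 1 gene, 1814 several and 16010 none. The members and gene lists were chosen with earlier results of these data known.

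A linear model with 1 term for treatment was fitted to every probe set (limma 3.58.1, R 4.3.3, moderated by eBayes; two-sided tests), with Benjamini-Hochberg adjustment over all 41345 and a threshold of 0.05. The procedure was tested on simulated data. Group medians carry no test, since genes share mice. Of the 57 genes, 36 exceeded the median of all probe sets. Named were all tubulins and cofactors, the 15 kinesins with the smallest p, Hdac6 and up to 3 genes per list. Sirt2, Dbh and the members Kif3a, Kif3b, Kif5a, Kif7, Kif11 and Kif17 were named after their values were seen, as were Kif13b, Kif18a and Kif23, which have a mouse far from its group. Of 24 alternatives, 21 were planned and 3 were added after the data had been seen.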

Additional observations from a re-analysis of the deposited data

Results flagged for a closer look

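In 6 of 118 groups of 6 mice (59 genes in 2 groups), a single mouse stood apart from the others by more than Dixon's 95% critical value; chance alone would give about 5.9. Tubd1 in vehicle mouse 6 measured 6.53, the next 5.95. Tbca in CM-695 mouse 2 measured 6.58, the next 7.17. Kif13b in CM-695 mouse 1 measured 6.91, the next 7.03, and Kif18a in the same mouse 3.24, the next 3.83. Kif14 in CM-695 mouse 4 measured 2.24, the next 2.81. Kif23 in vehicle mouse 3 measured 4.71, the next 4.24.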

How the results depend on the processing

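No gene of the 57 and none of the listed pathway genes passed the limma threshold in any of the 24 alternatives. Leaving out 1 mouse moved the tubulin median from 0.11 to 0.24, the cofactor median from 0.021 to 0.091 and the kinesin median from -0.0036 to 0.033. Of 830 values for 35 named genes, 813 kept their sign and 17, in 7 genes, did not; the size moved by over 1.5 times in at least 1 alternative for all but Tubb2a, Tubg1 and Kif5b. With 1 mouse left out, Tbcc ran from -0.15 to 0.0091, Tuba8 from -0.057 to 0.21, Tubd1 from -0.16 to 0.023, Tube1 from -0.011 to 0.061 and Tubg2 from -0.29 to 0.051. With the smooth muscle mean as a covariate Tbca was -0.0098 and Tuba8 -0.074; with the heart muscle mean Tbcc was 0.036, and with the platelet mean 0.014. With the neuron mean Tbca was -0.035 and Tubd1 0.026, and without CM-695 mice 4 and 6 they were -0.032 and 0.042. Averaging the probe sets of Kif27 gave 0.019, since they point in opposite directions; for the other 6 genes the cause was not tested. The values showed no sign that the replicate numbers pair the mice. After the group means of each probe set were subtracted, same-numbered mice correlated between -0.104 and 0.101. Of the 6 numbers, 1 matched best with itself. With the replicate number as a block, 15 probe sets of the whole table passed in place of 64, and 0 of the 57 genes, with an adjusted p of 0.217 for Tubb2a and 0.228 for Tuba1b. Dim probe sets limit what can be said of 10 of 11 mitotic kinesins and of Tuba1b, Tubb4b, Tubg2 and Tbcc. They also limit other kinesins, among them Kif6, Kif12, Kif17 and Kif27. The filter on brightness removed all of these and kept 36 of the 57 genes.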
